A study of Mus musculus with 12 samples.

Results

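The core circadian clock of mouse liver was followed through 10 genes, Arntl, Clock, Npas2, Per1, Per2, Per3, Cry1, Cry2, Nr1d1 and Nr1d2, taken by symbol from a table of 22456 genes. RNA was sequenced from the livers of 12 male BALB/cByJ mice, with 3 mice in each of 4 groups: Lpin1+/+ (WT) and Lpin1-/- littermates, each either fasted for 16 hours or refed chow for 5 hours after such a fast. Lpin1 encodes lipin 1, a phosphatidate phosphatase that also acts as a coregulator of transcription, and the Lpin1-/- mice carry the fatty liver dystrophy (fld) mutation in the whole body, so the loss of lipin 1 was not limited to the liver. Mice were 2 to 8 months old and were kept under 12 hours of light and 12 hours of dark. For the fast they were caged singly, at a room temperature below that of their usual group housing, and the temperature during refeeding is not stated. Refed livers were taken 5 hours later in the day than fasted livers, so feeding and time of day cannot be told apart in any comparison of the states, and the genotypes were therefore compared within each state first. Levels are given in RPKM, a read count scaled to the length of the gene and to the mapped reads of the library, so that genes of different length can be set side by side.

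The clock of a mammalian cell is a transcriptional loop. BMAL1, encoded by Arntl, pairs with CLOCK or with NPAS2 and activates genes that carry E-box elements, including the Per and Cry genes, whose proteins return to the nucleus and repress that activation. A connected loop runs through REV-ERBα and REV-ERBβ, encoded by Nr1d1 and Nr1d2, which are activated through E-boxes and repress Arntl through ROR response elements (ROREs), where the ROR receptors activate. In liver, the time of feeding is known to set the phase of this clock, and glucocorticoids, cAMP and body temperature are known to act on the Per genes.

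All 10 genes had a mean above 0.5 RPKM and were among the 11507 genes tested. Lpin1, the mutated gene, was measured at 22.0, 0.726 and 1.76 RPKM in fasted WT liver and 0.0597, 0.0566 and 0.0368 RPKM in fasted Lpin1-/- liver, and at 2.92, 0.784 and 2.76 RPKM against 0.00573, 0.0238 and 0.00962 RPKM in refed liver. Each WT library was above each Lpin1-/- library within a state. The difference was -2.19 on the log2(RPKM + 1) scale in fasted liver (adjusted p = 0.0562) and -1.55 in refed liver (adjusted p = 0.231) and passed in neither state, while averaged over both it was -1.87 (adjusted p = 0.0231, limma). Without WT fasted replicate 1 the Lpin1 difference passed in both states (limma), at -1.05 (adjusted p = 0.0450) in fasted and -1.55 (adjusted p = 0.0104) in refed liver. Both also passed with 0.1 RPKM added in place of 1. WT fasted replicate 1 stood apart in Lpin1, and it was also the highest library of its group for every clock gene but Nr1d1, so results that change without it are given both ways. The libraries also differed in how long and short genes read: the median deviation of the longest genes (the top quartile of exon length) minus that of the shortest (the bottom quartile) was 0.68 on the log2 scale in WT fasted replicate 1 and 0.64 in Lpin1-/- refed replicate 1, and -0.44 in WT fasted replicate 2 and -0.59 in Lpin1-/- fasted replicate 1, against -0.18 to 0.18 in the other 8 libraries. The part of this length trend in the results was not tested, and values from fits without those 4 libraries, or with the trend removed, are given where they change a call of a clock gene. Hepatocyte markers, albumin among them, summed to 34586 to 82119 RPKM over the 12 libraries. The summed hepatocyte, Kupffer cell, endothelial and blood markers overlapped between genotypes in both states. The 6 stellate cell markers did not in fasted liver, at 74.8 to 175 RPKM in WT and 214 to 306 RPKM in Lpin1-/-, nor did the 6 bile duct markers in refed liver, at 31.6 to 103 RPKM in WT and 19.2 to 27.8 RPKM in Lpin1-/-. Of 39 marker genes tested, Lyve1 of endothelium was called between genotypes in fasted liver (1.77, adjusted p = 0.0208), against 18.8% of all genes. In refed liver 0 were called (limma), against 6.67% of all genes, and 4 had an unadjusted p under 0.05. Averaged over both states 3 were called, all higher in Lpin1-/- liver: Tat of hepatocytes, Hgf of stellate cells and Lyve1, against 21.8% of all genes. Between states in Lpin1-/- liver 1 was called, Clec4f of Kupffer cells, lower after refeeding, against 20.7% of all genes. The part of these other cells in the results was not tested. In such bulk samples, fewer cells of a type and less RNA per cell cannot be told apart.

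Over the 12 libraries Nr1d1 had the highest mean level of the 10 genes, 25.1 ± 8.85 RPKM (SD, n = 12), followed by Nr1d2 at 12.8 ± 2.12 RPKM, Per1 at 11.2 ± 9.72 RPKM, Arntl at 7.92 ± 4.77 RPKM, Cry2 at 7.88 ± 2.72 RPKM and Cry1 at 7.16 ± 5.37 RPKM. Clock at 4.73 ± 3.20 RPKM and Per2 at 3.06 ± 2.56 RPKM came next, and Per3 at 0.641 ± 0.763 RPKM and Npas2 at 0.578 ± 0.432 RPKM were the lowest. The ranges of all neighbours in this order overlapped, although Nr1d1 was above Nr1d2 in 11 of 12 libraries and Per2 above Per3 in 12 of 12. Nr1d2 varied little, between 9.98 and 17.4 RPKM, whereas Per1 ran from 0.521 to 29.4 RPKM.

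**Figure D1:**
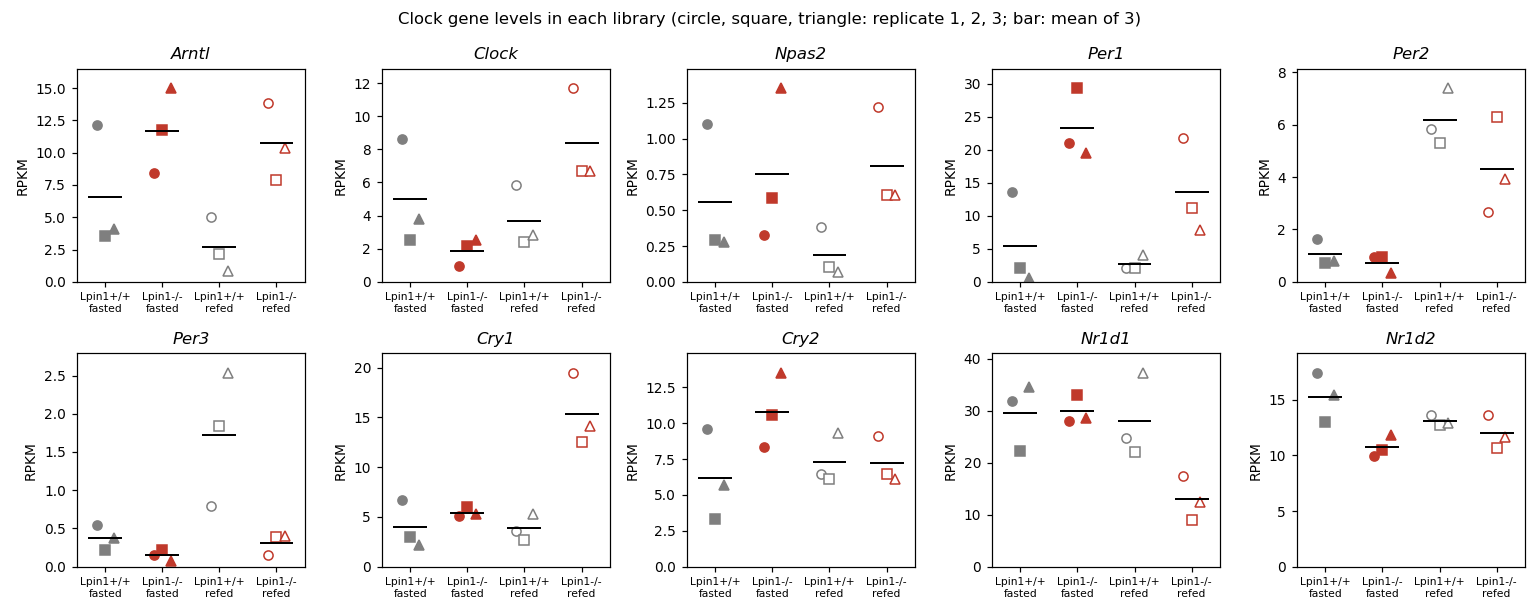
Level of each of the 10 clock genes in RPKM (vertical axis of each panel) in the 12 liver libraries, by genotype and feeding state. Each marker is 1 mouse, its shape the replicate number, filled for fasted and open for refed, grey for WT and red for Lpin1-/-, and black bars are means of 3. Per1 and Nr1d2 separate by genotype in fasted liver. Arntl, Clock, Npas2, Per1, Per3, Cry1 and Nr1d1 do so in refed liver. Only Per2 separates by state in both genotypes.

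Whether loss of lipin 1 goes with a different clock gene profile was asked first in fasted liver. Among the 10 genes only Per1 passed the test (limma on log2(RPKM + 1), Benjamini-Hochberg adjusted p under 0.05), and it was higher in Lpin1-/- liver. Nr1d1 had nearly the same mean in both genotypes, and Arntl, Cry1 and Cry2 had higher and Clock and Nr1d2 lower means in Lpin1-/- liver without passing. The 1 call of 10 compares with 18.8% of all genes tested, and 2 of the 10, Per1 and Nr1d2, did not overlap between genotypes, against 32.9% of all genes. The median difference of the 10 genes was 0.10 on the log2 scale, against -0.14 over all genes, and 4 had an unadjusted p under 0.05.

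In refed liver 4 of the 10 genes passed, against 6.67% of all genes: Arntl and Cry1 were higher and Per3 and Nr1d1 lower in Lpin1-/- liver. Groups did not overlap for 7 of the 10, the others being Clock, Npas2 and Per1, all with higher levels in Lpin1-/- liver, against 33.9% of all genes. The median difference of the 10 genes was 0.30, against -0.07 over all genes. Averaged over both states, Arntl, Per1 and Cry1 were higher and Per3 was lower, 4 of 10 against 21.8% of all genes. Rescaling the libraries to a common median ratio moved the median difference of all genes in fasted liver from -0.14 to 0.01, and the genes called higher there from 648 of 2168 to 1059 of 2258. No clock gene called in any comparison changed direction with it, and Cry2 joined Per1 among the calls in fasted liver.

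The comparison of states gave 1 call of 10 in WT liver, Per2, against 1.72% of all genes, and 2 of 10 without overlap, Per2 and Per3, against 18.1% of all genes. In Lpin1-/- liver 4 of 10 passed, against 20.7% of all genes, with Clock, Per2 and Cry1 higher and Nr1d1 lower after refeeding, and the same 4 were those whose groups did not overlap, against 46.8% of all genes. The WT comparison and the Lpin1-/- comparison use different mice. A difference between genotypes in the response to refeeding, tested as an interaction, passed for 0 of the 10 genes (limma), against 1.28% of all genes, and 4 had an unadjusted p under 0.05: Clock at 1.99 (adjusted p = 0.108), Nr1d1 at -1.10 (adjusted p = 0.160), Cry1 at 1.28 (adjusted p = 0.168) and Per3 at -0.74 (adjusted p = 0.252). With the length trend removed, Clock passed at 1.73 (adjusted p = 0.0415).

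Calls also moved when the 4 libraries with a strong length trend were left out, a fit that kept 1 fasted WT library, assumed to vary like the other groups. In fasted liver the Per1 difference was 4.04, against 2.55 with all libraries. The fasted WT library kept was replicate 3, at 0.521 RPKM the lowest Per1 value of the 12 libraries, so the larger size rests on that 1 library. Per1 joined the calls in refed liver, at 1.52. In refed liver Arntl was no longer called, at 1.62 (adjusted p = 0.0819), nor was Per3, at -0.91 (adjusted p = 0.101), and the averaged call of Per3 was lost at -0.59 (adjusted p = 0.137). Between states, Per2 was no longer called in WT liver, at 1.98 (adjusted p = 0.116), and the 4 calls in Lpin1-/- liver became 6 with Per1, at -1.27 (adjusted p = 0.0449), and Cry2, at -0.83 (adjusted p = 0.0472).

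**Figure D2:**
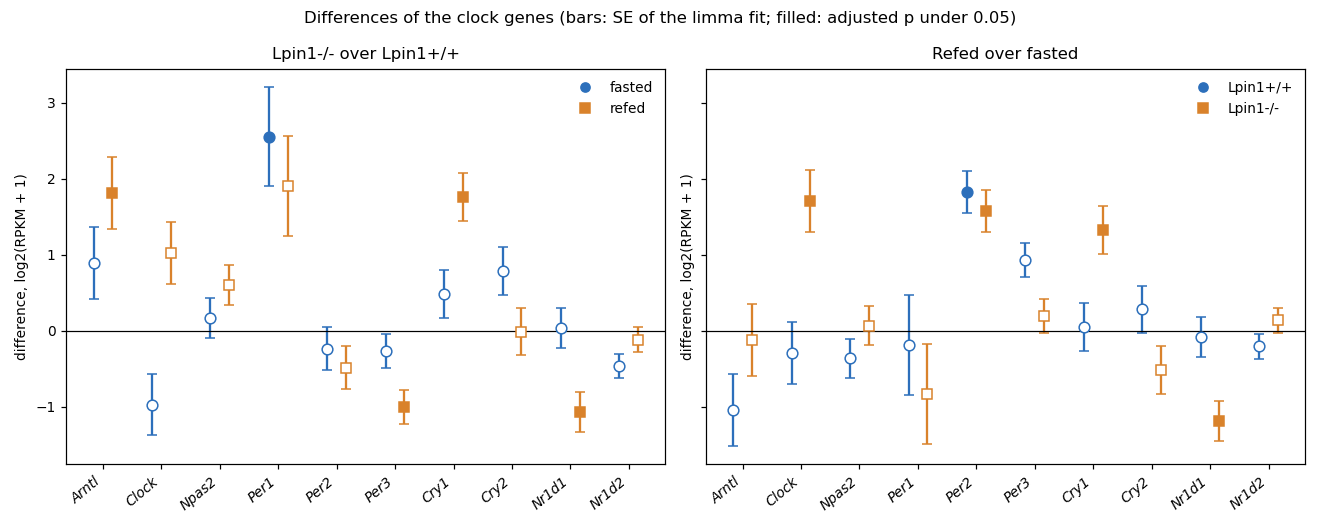
Differences on the log2(RPKM + 1) scale for each of the 10 clock genes, by comparison; the points are limma estimates, the bars standard errors, and a filled marker stands for an adjusted p under 0.05. Per1 passes in fasted liver, Arntl, Cry1, Per3 and Nr1d1 in refed liver, Per2 between states in WT liver, and Clock, Per2, Cry1 and Nr1d1 between states in Lpin1-/- liver.

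Arntl encodes the partner that all activating dimers share. It was measured at 12.1, 3.53 and 4.06 RPKM in fasted WT liver and 8.40, 11.7 and 15.01 RPKM in fasted Lpin1-/- liver. The single high WT library reached into the Lpin1-/- range, so the groups overlapped, and the difference of 0.89 ± 0.47 (SE) did not pass (adjusted p = 0.216; 1.38 and 0.0540 without WT fasted replicate 1). In refed liver Arntl was at 5.05, 2.18 and 0.812 RPKM in WT and 13.9, 7.92 and 10.4 RPKM in Lpin1-/-. Each refed Lpin1-/- library was above each refed WT library. The refed difference was 1.81 ± 0.47 on the log2 scale (adjusted p = 0.0444), and the averaged one 1.35 ± 0.33 (adjusted p = 0.0146). The refed call was lost in 11 of 21 alternative fits, 8 of which leave out a single library: WT refed replicate 2 or 3, any refed Lpin1-/- replicate, WT fasted replicate 3, or Lpin1-/- fasted replicate 2 or 3 (adjusted p between 0.0549 and 0.156). The averaged call was lost in 1 of 20.

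Clock and Npas2 encode the alternative partners of BMAL1. Clock was at 8.59, 2.54 and 3.81 RPKM in fasted WT liver and 0.941, 2.15 and 2.55 RPKM in fasted Lpin1-/- liver, and at 5.87, 2.42 and 2.80 RPKM in refed WT and 11.7, 6.66 and 6.72 RPKM in refed Lpin1-/- liver. The lowest fasted WT library fell just under the highest Lpin1-/- library, while in refed liver every Lpin1-/- library was above every WT one. The differences had opposite signs, -0.97 ± 0.40 in fasted liver (adjusted p = 0.118) and 1.02 ± 0.40 in refed liver (adjusted p = 0.157), and neither passed; both did with the length trend removed (-0.80, adjusted p = 0.0495; 0.93, adjusted p = 0.0493). Within Lpin1-/- liver, Clock rose after refeeding by 1.70 ± 0.40 (adjusted p = 0.0133), from a mean of 1.88 to 8.36 RPKM; without fasted replicate 1 the value was 1.44 (adjusted p = 0.0564), and without refed replicate 1 it was 1.46 (adjusted p = 0.0508). Npas2 was low, between 0.0693 and 1.35 RPKM over all 12 libraries. Its refed means were 0.186 ± 0.173 RPKM in WT and 0.810 ± 0.356 RPKM in Lpin1-/- liver (SD, n = 3), without overlap, and the difference of 0.60 ± 0.26 did not pass (adjusted p = 0.197).

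Per1, whose protein is a repressor of BMAL1 and CLOCK and whose gene responds rapidly to glucocorticoids and cAMP, had the largest estimated genotype difference of the 10 genes on this scale in both states. It was measured at 13.6, 2.07 and 0.521 RPKM in fasted WT liver and 21.04, 29.4 and 19.6 RPKM in fasted Lpin1-/- liver. All 3 Lpin1-/- libraries were above the highest WT library, which was replicate 1. The difference was 2.55 ± 0.66 (adjusted p = 0.0201), and 3.47 without WT fasted replicate 1 (adjusted p = 0.00109). The call was lost in 5 of 21 alternatives, among them those without WT fasted replicate 3 (1.84, adjusted p = 0.0807), WT fasted replicate 2 (2.35, adjusted p = 0.0517) or Lpin1-/- fasted replicate 2 (2.38, adjusted p = 0.0654). In refed liver Per1 was at 2.03, 2.03 and 4.09 RPKM in WT and 21.7, 11.2 and 7.79 RPKM in Lpin1-/-, again without overlap, but the difference of 1.90 ± 0.66 did not pass (adjusted p = 0.109; 0.0154 without WT fasted replicate 1). Averaged over states it was 2.23 ± 0.46 (adjusted p = 0.00637) and passed in all 20 alternatives run.

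Per2 and Per3 encode the other PER proteins, PER2 being a central repressor with CRY, and differed from Per1 in their pattern over the groups. Per2 was at 1.64, 0.700 and 0.805 RPKM in fasted WT liver and 5.84, 5.30 and 7.41 RPKM in refed WT liver, and at 0.934, 0.943 and 0.323 RPKM in fasted and 2.68, 6.29 and 3.91 RPKM in refed Lpin1-/- liver. Every refed library was above every fasted library, in each genotype. Per2 rose between states by 1.83 ± 0.28 in WT (adjusted p = 0.0120) and by 1.58 ± 0.28 in Lpin1-/- liver (adjusted p = 0.00373). The 2 rises differed by -0.25 ± 0.40 in the interaction test (adjusted p = 0.754). The WT call was lost in 5 of 20 alternatives, without WT fasted replicate 2 (1.71, adjusted p = 0.0600), WT fasted replicate 3 (1.75, adjusted p = 0.0520) or WT refed replicate 3 (1.71, adjusted p = 0.0548) among them, and the Lpin1-/- call in 0 of 20. Between genotypes Per2 differed by -0.24 ± 0.28 in fasted (adjusted p = 0.5998) and -0.49 ± 0.28 in refed liver (adjusted p = 0.336).

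Per3, whose loss leaves the core rhythm largely intact in mice, was at 0.552, 0.215 and 0.374 RPKM in fasted WT and 0.148, 0.222 and 0.0716 RPKM in fasted Lpin1-/- liver. In refed liver it was at 0.789, 1.84 and 2.54 RPKM in WT and 0.154, 0.389 and 0.402 RPKM in Lpin1-/-. The refed groups did not overlap and the fasted groups did, by a small margin. Per3 was lower in refed Lpin1-/- liver at -0.999 ± 0.225 on the log2(RPKM + 1) scale (adjusted p = 0.0250), which understates changes of genes near 1 RPKM, and at -2.06 with 0.1 added in place of 1. This call was lost in 8 of 20 alternatives, 5 of them the fits that leave out WT refed replicate 2 or 3 or any 1 of the refed Lpin1-/- replicates (adjusted p between 0.0588 and 0.0992). Between states in WT liver Per3 differed by 0.93 ± 0.22, without overlap and without passing (adjusted p = 0.0692; 0.0442 without WT refed replicate 1).

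The cryptochromes CRY1 and CRY2 are the main direct repressors of BMAL1 and CLOCK. Cry1 was at 6.66, 2.98 and 2.20 RPKM in fasted WT and 5.06, 5.95 and 5.29 RPKM in fasted Lpin1-/- liver, and at 3.64, 2.70 and 5.30 RPKM in refed WT and 19.5, 12.5 and 14.1 RPKM in refed Lpin1-/- liver. The fasted groups overlapped, whereas the refed Lpin1-/- libraries were all above every other library of the study. The refed difference was 1.76 ± 0.31 (adjusted p = 0.00986) and passed in all 21 alternatives run, the only clock gene to do so in refed liver. In fasted liver the difference was 0.48 ± 0.31 (adjusted p = 0.316), and 0.85 without WT fasted replicate 1 (adjusted p = 0.0469). Within Lpin1-/- liver Cry1 rose after refeeding by 1.33 ± 0.31 (adjusted p = 0.0134; 1.16 and 0.0508 without refed replicate 1), while in WT liver the difference was 0.05 ± 0.31 (adjusted p = 0.960).

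Cry2 did not share this pattern. It was at 9.57, 3.33 and 5.67 RPKM in fasted WT and 8.34, 10.6 and 13.5 RPKM in fasted Lpin1-/- liver, with the highest WT library inside the Lpin1-/- range. The difference was 0.79 ± 0.31 (adjusted p = 0.103) and passed without WT fasted replicate 1 at 1.11 (adjusted p = 0.0235). It also passed with the length trend removed, at 0.85 (adjusted p = 0.0379). In refed liver Cry2 was at 6.48, 6.09 and 9.34 RPKM in WT and 9.09, 6.48 and 6.11 RPKM in Lpin1-/-, a difference of -0.01 ± 0.31 (adjusted p = 0.987).

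The REV-ERB genes, whose products are heme-binding repressors of Arntl, differed from each other. Nr1d1 was at 31.9, 22.2 and 34.5 RPKM in fasted WT and 27.96, 33.0 and 28.7 RPKM in fasted Lpin1-/- liver, and at 24.7, 22.1 and 37.3 RPKM in refed WT and 17.4, 9.05 and 12.4 RPKM in refed Lpin1-/- liver. The refed Lpin1-/- libraries were the 3 lowest of the 12. Nr1d1 was lower there by -1.06 ± 0.26 against refed WT (adjusted p = 0.0374) and by -1.18 ± 0.26 against fasted Lpin1-/- liver (adjusted p = 0.0102). The genotype call was lost in 9 of 21 alternatives, 7 of which leave out a single library: WT refed replicate 1 or 3, Lpin1-/- refed replicate 2 or 3, WT fasted replicate 3, or Lpin1-/- fasted replicate 2 or 3 (adjusted p between 0.0513 and 0.130). The feeding call was lost in 1 of 21, without Lpin1-/- refed replicate 2 (-0.97, adjusted p = 0.0507). The fasted genotypes differed by 0.04 ± 0.26 (adjusted p = 0.943). Reads of Nr1d1 and of Thra, which lies on the opposite strand and shares 263 of the 3077 exonic bases of Nr1d1, could be mixed if counting ignored strand, which the sources used here do not state; Cry2 shares 295 of 6320 bases and Arntl 33 of 7523 with a non-coding gene on the other strand. Nr1d2 was at 17.4, 13.0 and 15.4 RPKM in fasted WT and 9.98, 10.5 and 11.9 RPKM in fasted Lpin1-/- liver. These did not overlap, and the difference of -0.46 ± 0.16 did not pass (adjusted p = 0.0709). It passed without WT fasted replicate 2 (adjusted p = 0.0428) and with the length trend removed, at -0.42 (adjusted p = 0.0444). In refed liver Nr1d2 was at 13.6, 12.7 and 12.9 RPKM in WT and 13.6, 10.7 and 11.7 RPKM in Lpin1-/- (-0.12 ± 0.16, adjusted p = 0.710). Averaged over both states Nr1d2 did not pass, at -0.29 (adjusted p = 0.0958), but did with the length trend removed, at -0.28 (adjusted p = 0.0497).

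The promoters of the 4 genes called in refed liver are shown because Arntl and Cry1 were higher and Per3 and Nr1d1 lower there, and the loops act on such elements. Each run is 250 bases before to 50 bases after the annotated start, from RefSeq on GRCm38.p6, 5′ to 3′ on the strand of the gene. Capitals mark matches, on either strand, to the E-box CACGTG, the related element CACGTT, the RORE TAGGTCA, the D-box TTATGTAA or the cAMP response element TGACGTCA.
Arntl, chr7:113207261-113207560, plus strand, the second of the starts listed: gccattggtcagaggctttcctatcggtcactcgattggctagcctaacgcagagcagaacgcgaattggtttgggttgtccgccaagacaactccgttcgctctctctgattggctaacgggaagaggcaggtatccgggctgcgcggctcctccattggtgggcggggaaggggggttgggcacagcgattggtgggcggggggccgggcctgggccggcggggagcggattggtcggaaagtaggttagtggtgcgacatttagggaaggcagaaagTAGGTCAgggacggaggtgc
Cry1, chr10:85185005-85185304, minus strand: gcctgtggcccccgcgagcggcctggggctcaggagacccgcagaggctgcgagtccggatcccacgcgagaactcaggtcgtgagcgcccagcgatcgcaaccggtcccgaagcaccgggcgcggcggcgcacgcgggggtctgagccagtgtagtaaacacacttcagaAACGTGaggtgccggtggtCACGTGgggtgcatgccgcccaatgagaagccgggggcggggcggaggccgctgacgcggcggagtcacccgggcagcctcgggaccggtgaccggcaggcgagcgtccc
Per3, chr4:151044616-151044915, minus strand: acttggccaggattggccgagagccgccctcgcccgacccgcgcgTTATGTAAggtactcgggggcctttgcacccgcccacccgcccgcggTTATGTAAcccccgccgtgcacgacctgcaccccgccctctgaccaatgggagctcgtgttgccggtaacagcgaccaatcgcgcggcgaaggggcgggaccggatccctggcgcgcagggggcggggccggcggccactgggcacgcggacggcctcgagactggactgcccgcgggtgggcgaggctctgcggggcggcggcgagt
Nr1d1, chr11:98775328-98775627, minus strand: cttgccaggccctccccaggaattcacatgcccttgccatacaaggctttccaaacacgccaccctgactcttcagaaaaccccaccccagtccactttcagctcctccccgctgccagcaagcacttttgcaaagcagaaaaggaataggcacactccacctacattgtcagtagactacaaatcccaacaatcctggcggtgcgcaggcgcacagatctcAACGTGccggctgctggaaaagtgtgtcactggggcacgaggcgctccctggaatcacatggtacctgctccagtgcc
The RORE of Arntl began 30 bases after the start, the E-box of Cry1 60 and its CACGTT element 79 bases before the start, the D-boxes of Per3 205 and 158 bases before it, and the CACGTT element of Nr1d1 28 bases before it. No match overlapped another. Of 32851 promoters of this length, 7.15% held the E-box, 4.68% CACGTT, 2.61% the RORE, 0.938% the D-box and 1.79% the cAMP response element. Among 13 promoters listed for 9 of the 10 genes, the only other matches were an E-box of Per1 and a CACGTT element of Cry2, each 166 bases before the start.

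Deposited counts of reads that include or skip single exons gave a second view of the same genes. In fasted liver 55 exon events of 8 of the 10 genes had at least 10 counts in each of the 6 libraries, and 14 differed by genotype, in Arntl (7 of 19 events), Nr1d2 (4 of 14), Nr1d1 (2 of 3) and Per1 (1 of 5), against 11.3% of all 69644 events. None of the 6 events of Clock, 5 of Cry2, 2 of Cry1 and 1 of Per2 passed, and the events of Npas2 and Per3 were too thinly covered to test. Many events share an exon or its skipping reads, so they are not independent. In refed liver 0 of 40 events passed (limma), against 0.97% of all events, although 6 had an unadjusted p under 0.05. In each of 10 alternatives 0 passed. The events tested differed between states, with 3 of Arntl in refed against 19 in fasted liver. Several events called in fasted liver were absent or too thinly covered to test in refed liver. Exon inclusion is given as the length-corrected share of the including form, and the tested difference is the log2 of the ratio of including to skipping form with 0.5 added to each count. The libraries of these count lists carry no replicate number, so they are named by their position in the list. Sequences of the 4 annotated coding exons with the largest differences are shown from GENCODE M21 transcripts on GRCm38, with the exon in capitals and 15 bases of the neighbouring exons in lower case.
Nr1d1 exon 3 of 8, chr11:98771437-98771525, minus strand: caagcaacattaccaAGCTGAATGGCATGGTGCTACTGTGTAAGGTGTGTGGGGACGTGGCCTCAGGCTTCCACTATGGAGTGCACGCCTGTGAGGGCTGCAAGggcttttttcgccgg
Per1 exon 17 of 23, chr11:69104634-69104813, plus strand: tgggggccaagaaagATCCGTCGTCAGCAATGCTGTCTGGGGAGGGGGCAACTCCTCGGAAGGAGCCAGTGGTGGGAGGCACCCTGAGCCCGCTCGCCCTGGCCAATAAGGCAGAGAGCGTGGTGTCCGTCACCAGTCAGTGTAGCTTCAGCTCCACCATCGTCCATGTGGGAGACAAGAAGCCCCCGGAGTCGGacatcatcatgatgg
Arntl exon 12 of 20, chr7:113295444-113295593, plus strand: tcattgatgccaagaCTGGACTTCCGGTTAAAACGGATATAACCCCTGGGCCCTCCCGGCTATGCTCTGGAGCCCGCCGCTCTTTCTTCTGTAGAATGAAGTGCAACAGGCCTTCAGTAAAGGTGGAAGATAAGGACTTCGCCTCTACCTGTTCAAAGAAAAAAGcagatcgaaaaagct
Arntl exon 5 of 20 of transcript Arntl-206, chr7:113281402-113281422, plus strand: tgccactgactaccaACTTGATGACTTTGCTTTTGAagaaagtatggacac

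Nr1d1 exon 3 has 89 bases, which is not a multiple of 3. Its called event had an inclusion of 100% in all 3 fasted WT libraries. In fasted Lpin1-/- liver inclusion was 56.5%, 42.5% and 64.4%. The WT libraries had 610, 264 and 554 including and 0 skipping counts, and if 3 counts of skipping had gone unseen inclusion would still be at least 97.4%; the Lpin1-/- libraries had 54, 156 and 81 skipping counts. The groups lay far apart, with a log2 ratio difference of -8.34 ± 0.72 (adjusted p = 3.55e-04; at most 0.0192 over 10 alternatives), a size that depends on the 0.5 added since WT skipping was at 0. Inclusion was 98.7% to 100% in all 6 refed libraries. In the same fasted livers total Nr1d1 was 29.5 ± 6.50 RPKM in WT and 29.9 ± 2.73 RPKM in Lpin1-/- (SD, n = 3). A 29-base form that begins at the same base, absent from the annotation, shared these skipping counts and gave -8.40 ± 0.70 (adjusted p = 2.71e-04), while the remaining event on exon 3, with another neighbour, did not pass. In that remaining event the fasted Lpin1-/- libraries had 90, 152 and 191 including and 0, 2 and 0 skipping counts. Skipping was thus counted mainly for 1 pair of neighbours. Both events can count the same reads within the exon, so they do not show how much of all Nr1d1 RNA lacks it.

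Inclusion of Per1 exon 17, of 180 bases in frame, was 100%, 97.0% and 100% in fasted WT liver. It was 15.3%, 11.5% and 41.4% in fasted Lpin1-/- liver. The skipping form was the major one in all 3 Lpin1-/- libraries, with 339, 530 and 201 skipping counts, and had 0, 1 and 0 counts in WT. The third WT library held only 17 counts and would be at 60.8% with 3 unseen skipping counts, still above the Lpin1-/- range. The difference was -7.37 ± 1.15 (adjusted p = 0.00202; at most 0.0400 over 9 alternatives). In refed liver inclusion was 92.7%, 96.5% and 100% in WT and 87.5%, 90.2% and 89.6% in Lpin1-/- liver, without overlap, and the difference of -1.82 ± 0.85 did not pass (adjusted p = 0.374).

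Arntl had 2 annotated coding exons that moved in opposite directions. Exon 12, of 150 bases in frame, was included in 100% in each fasted WT library and in 58.2%, 74.5% and 79.7% in fasted Lpin1-/- liver (-5.26 ± 0.79, adjusted p = 0.00156); against a neighbouring splice site 3 bases upstream the Lpin1-/- values were 29.9%, 54.5% and 81.3% (-6.44 ± 0.92, adjusted p = 0.00121). In refed liver the same exon was at 100% in WT and 99.3% to 100% in Lpin1-/- liver. The 21-base exon of Arntl-206 was included in 6.10%, 2.48% and 0% in fasted WT and 53.9%, 55.8% and 51.6% in fasted Lpin1-/- liver, far apart (5.35 ± 0.78, adjusted p = 0.00132). In refed liver it was at 4.56%, 4.56% and 0% in WT and 5.49%, 0% and 0% in Lpin1-/- liver, and 1 WT library with 9 counts kept it from being tested. Ahead of the coding exons, a 44-base segment absent from the annotation (chr7:113264966-113265009) was at 0%, 0% and 3.10% in fasted WT and 54.4%, 35.1% and 30.2% in fasted Lpin1-/- liver (5.03 ± 0.83, adjusted p = 0.00271), on 10 to 85 counts a library. A 57-base form of it (4.29, adjusted p = 0.00527), a 60-base segment (2.30, adjusted p = 0.0433, lost in 7 of 8 alternatives) and the non-coding exon 3 of 128 bases (3.69, adjusted p = 0.0112, lost in 3 of 9) were also included more in fasted Lpin1-/- liver.

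Nr1d2, whose total varied least, had smaller exon differences. An unannotated 170-base segment (chr14:18207297-18207466) was included in 0.937%, 0.358% and 0.649% in fasted WT and 14.6%, 6.19% and 11.5% in fasted Lpin1-/- liver, without overlap (4.04 ± 0.71, adjusted p = 0.00352), and a 173-base form with the same skipping counts gave 4.19 (adjusted p = 0.00261). Exon 3, of 89 bases like exon 3 of Nr1d1, was included in 99.6%, 99.2% and 100% in WT and 96.2%, 92.6% and 97.2% in Lpin1-/- liver (-3.06 ± 0.79, adjusted p = 0.0261), and a 96-base form gave -3.01 (adjusted p = 0.0261). Both of the latter calls rested on 9 skipping counts or fewer in any library and were lost in 4 of 10 alternatives, with adjusted p up to 0.135. Of the genes without a call, the event whose rarer form (inclusion or skipping) had the most counts on average differed by -2.57 ± 1.09 in Clock (adjusted p = 0.155), 1.21 ± 0.87 in Cry1 (adjusted p = 0.411), -1.30 ± 0.84 in Cry2 (adjusted p = 0.350) and -1.33 ± 0.79 in Per2 (adjusted p = 0.312).

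**Figure D3:**
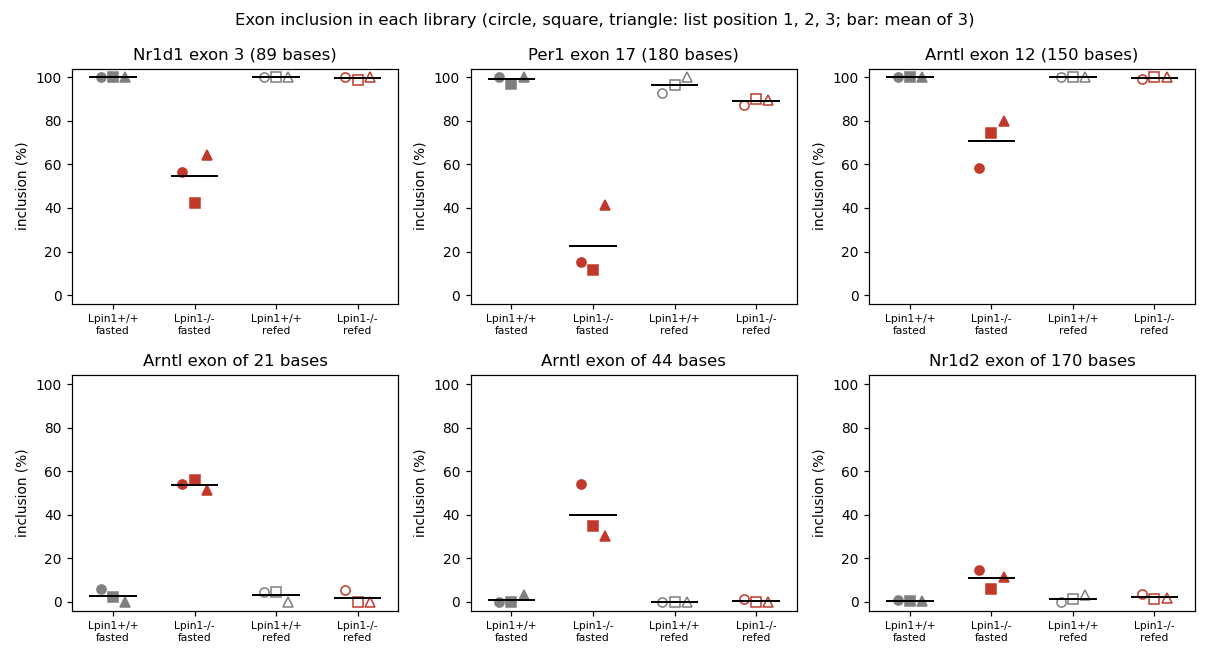
Length-corrected share of the form that includes the named exon (vertical axes, in percent) in the 12 libraries, for Nr1d1, Per1, Arntl and Nr1d2. Each marker is 1 library, grey for WT and red for Lpin1-/-, filled for fasted and open for refed. Black bars are means of 3. Fasted Lpin1-/- libraries stand apart from the other 9 in each panel, for example at 42.5% to 64.4% for Nr1d1 exon 3 against 98.7% to 100%.

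Exons could be compared between states where both genotype lists held the same coordinates, a set chosen after seeing the data that left 21 events of these genes. The log2 ratio of inclusion to skipping differed between refed and fasted Lpin1-/- liver for 3 of 21, against 7.8% of all 28444 joined events. Inclusion was higher in refed liver for Nr1d1 exon 3, by 6.97 ± 0.77 (adjusted p = 4.91e-04), and for Per1 exon 17, by 4.97 ± 1.15 (adjusted p = 0.0170). The remaining call was Per2 exon 19, of 797 bases, at 3.18 ± 0.79 (adjusted p = 0.0237). Its skipping counts were 0, 2 and 0 in fasted and 0, 0 and 1 in refed Lpin1-/- liver, so its ratio follows the including counts and the 0.5 added, and no difference in inclusion can be read from it. In WT liver 0 of 21 passed (limma), with Per2 exon 19 the 1 event at an unadjusted p under 0.05 and its skipping counts at 0 in all 6 WT libraries, and the share of all joined events was 0%. The interaction passed for 1 of 21, Nr1d1 exon 3 at 6.90 ± 1.08 (adjusted p = 0.0185), against 0.777% of all joined events, and for Per1 exon 17 it was 5.55 ± 1.63 (adjusted p = 0.141).

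Genes that act around the 10 were grouped by role in lists, with no test over a list. The counts of calls in fasted liver are read against the 18.8% of all genes called there. Ciart, which represses BMAL1 and CLOCK at E-boxes, was at 1.03, 0.351 and 0.310 RPKM in WT and 25.4, 41.7 and 15.4 RPKM in Lpin1-/- liver, far apart, a difference of 4.11 ± 0.53 (adjusted p = 7.17e-04) that was the largest in these lists in fasted liver. Nfil3, which represses through D-boxes and is itself a REV-ERB target, was at 30.9, 19.3 and 19.5 RPKM in WT and 124, 114 and 139.6 RPKM in Lpin1-/- liver, again without overlap (2.41 ± 0.39, adjusted p = 0.00223). Among 4 E-box repressors tested Ciart and Bhlhe40 (1.90 ± 0.44, adjusted p = 0.0127) were higher and 0 lower, and among 7 genes of the RORE loop and heme Nfil3 and Alas1, the first enzyme of heme synthesis (1.82 ± 0.53, adjusted p = 0.0345), were higher and 0 lower. The Alas1 call was kept in 13 of 21 alternatives and lost without WT fasted replicate 2 or 3 or any 1 fasted Lpin1-/- library, with adjusted p up to 0.135, and that of Bhlhe40 was lost without WT fasted replicate 3 (adjusted p = 0.0533). Of 14 clock coregulators 1 was higher, Nampt, the enzyme that makes the NAD+ precursor NMN (1.96 ± 0.26, adjusted p = 8.33e-04), and 2 were lower, the acetyltransferase gene Kat2b (-1.40, adjusted p = 0.00868) and Parp1 (-0.92, adjusted p = 0.0333; kept in 11 of 21 alternatives). This share is near that of all genes, and nothing particular to the coregulators is read from it.

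Of 13 genes that feed into Per transcription or its messages, 3 were higher in fasted Lpin1-/- liver and 0 lower: the kinase genes Sik1 (2.45 ± 0.54, adjusted p = 0.00993) and Sgk1 (2.07 ± 0.48, adjusted p = 0.0129), which are induced by cAMP and by glucocorticoids, and Cirbp, a cold-induced RNA-binding protein (means of 31.2 RPKM in WT and 90.04 RPKM in Lpin1-/-, adjusted p = 0.00309). This count too is close to the 18.8% of all genes, and the Sgk1 call was lost without WT fasted replicate 3 (adjusted p = 0.0618). Among 17 enzymes that modify PER and CRY, Csnk1e (0.86) was higher and Btrc (-0.80) and Fbxl21 (-0.56) were lower, with adjusted p of 0.0418, 0.0365 and 0.0193; the calls were kept in 8, 9 and 15 of 20 alternatives. Parp1, Csnk1e, Btrc and Fbxl21 each lost their call without WT fasted replicate 3 or Lpin1-/- fasted replicate 1 or 2, among others. The median differences in fasted liver were 1.21 for the E-box repressors, 0.36 for the RORE loop, 0.62 for the Per inputs, -0.31 for the enzymes and -0.33 for the coregulators, against -0.14 over all genes. In refed liver 0 of the 55 genes tested in these 5 lists passed (limma), against 6.67% of all genes, with 11 at an unadjusted p under 0.05.

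The PAR bZIP factors DBP, TEF and HLF activate through D-boxes, where NFIL3 represses, and Dbp is a direct target of BMAL1 and CLOCK. Dbp was at 27.4, 84.8 and 147.6 RPKM in refed WT and 4.63, 12.8 and 8.97 RPKM in refed Lpin1-/- liver. The groups did not overlap and differed by -2.96 ± 0.70 (adjusted p = 0.0318), the only call in refed liver outside the 10 genes in these lists, kept in 14 of 21 alternatives; averaged over both states it was -2.25 ± 0.50 (adjusted p = 0.00854) and kept in 20 of 20. In fasted liver the call among the 3 was Hlf, lower by -1.24 ± 0.38 (adjusted p = 0.0409) and kept in 9 of 21 alternatives. Averaged over both states Ciart (2.77), Nfil3 (1.83), Nampt (1.12), Sgk1 (1.47) and Cirbp (0.85) were higher in all 20 alternatives, and Usp2, a deubiquitinase of clock proteins, was higher at 1.32 ± 0.34 (adjusted p = 0.0191). Between states in WT liver, 0 of the 58 genes tested in these 6 lists passed (limma), against 1.72% of all genes, although 9 had an unadjusted p under 0.05. Against 20.7% of all genes called between states in Lpin1-/- liver, lower after refeeding were Nfil3 (-2.31 ± 0.39, adjusted p = 0.00306), Cirbp (-2.29 ± 0.26, adjusted p = 5.83e-04), Nampt (-1.14 ± 0.26, adjusted p = 0.0112) and Sgk1 (-1.54 ± 0.48, adjusted p = 0.0412), and higher were Hlf (1.77 ± 0.38, adjusted p = 0.00834), Tef (1.32 ± 0.37, adjusted p = 0.0271) and Cipc, an inhibitor of CLOCK (1.44 ± 0.34, adjusted p = 0.0124). The Sgk1 call was kept in 11 and the Tef call in 13 of 21 alternatives, and both were lost without any 1 refed Lpin1-/- library or without Lpin1-/- fasted replicate 1 or 3, among others.

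**Figure D4:**
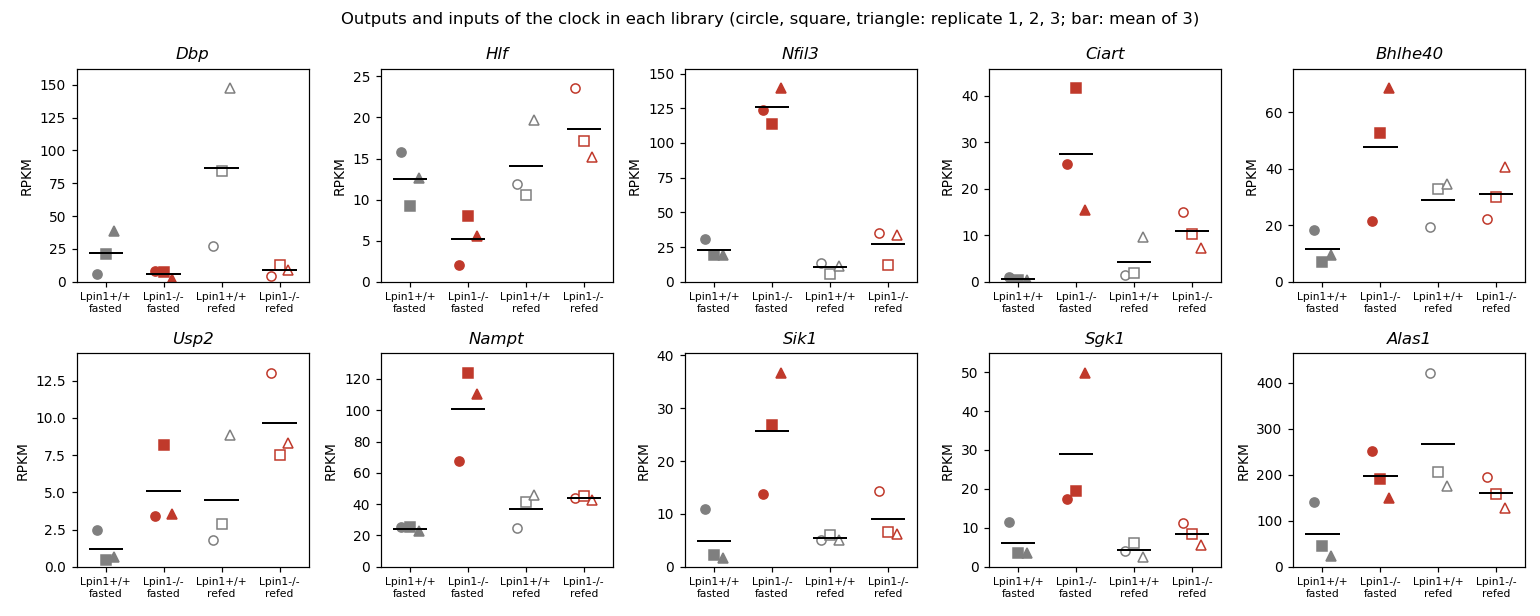
Level in RPKM (vertical axes) of 10 genes that act around the clock loop, in the 12 libraries, with the same markers as the plot of the 10 clock genes. Nfil3 and Ciart are highest in fasted Lpin1-/- liver, Ciart at 15.4 to 41.7 RPKM there, and Dbp is highest in refed WT liver, up to 147.6 RPKM.

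The genes whose log2 levels ran closest to Arntl over the 12 libraries, among 11497 genes that are not clock members, were Got1 (Pearson r = 0.944), Lgalsl (0.926), Zmym5 (0.924), Tmem106b (0.924) and Tmtc2 (0.921). Closest to Nr1d1 were Nt5dc2 (0.859), Siah2 (0.859), Elovl5 (0.847), Srd5a1 (0.823) and Dhx40 (0.815). These are descriptions over libraries that share group differences and length trends.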

How the data were processed

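Liver RNA of 12 mice was sequenced by the authors as stranded 69-base paired reads, about 150 M per sample per the labels. The authors aligned reads to GRCm38 (Ensembl release 84) with HISAT2 2.0.5, counted genes with HTSeq 0.6.0, and deposited RPKM per gene and library. They also deposited inclusion and skipping read counts of skipped exons from rMATS, whose version is not given in the sources used here, for each genotype comparison within a state; p-values, false discovery rates and inclusion differences in those tables are the authors' own comparisons and were not used, and the authors' DESeq2 1.20.0 results were not used either. Depth cannot be read from RPKM as deposited; steps between low values gave relative depths of 0.866 to 1.16 times WT fasted replicate 1, from only 15.7% to 20.4% of ratios. The exon tables held a median of 148 to 318 counts per event and library, which sets their precision; intervals and floors of 3 counts cover counting error only.

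The 11507 of 22456 genes that averaged 0.5 RPKM or more were fitted as log2(RPKM + 1) with limma 3.58.1 (R 4.3.3), a variance trend and 1 fit over the 4 groups. Exon events with at least 10 counts in each of the 6 libraries of a state were fitted in the same way, as log2 of inclusion over skipping after adding 0.5 to each count and dividing by effective length. P-values are two-sided and were Benjamini-Hochberg adjusted over all genes or events, with calls under 0.05. Fold changes are on the log2(RPKM + 1) scale, which understates changes of low genes. Each mouse gave 1 library, so p-values measure the spread between mice. All 10 clock genes, Lpin1, up to 3 genes per direction from each other list, the 5 genes most like Arntl or Nr1d1 by Pearson r, and every called exon event (otherwise the one whose rarer form, inclusion or skipping, averaged the most counts) are named by rule, except for an item that is not reported here. The members and lists were chosen with earlier results of these data known. Fits were tested on simulated data, where the exon fit exceeded its nominal rate of false calls. With 200 events changed 8-fold in odds, 25.5% of calls were false in fasted and 9.62% in refed liver, and 38 and 47 of the 200 were recovered. With 2000 changed, 9.76% and 7.41% of calls were false, and 1184 and 1436 were recovered. Alternatives covered the pseudocount, filters, scaling, variance trend, library sets, each library left out and a replicate block; removing a length trend, leaving out the 4 libraries with a strong one, and joining exon events over states were added after seeing the data. Labels number replicates 1 to 3 in each group. Deviations of same-numbered libraries from their group means correlated at 0.186, 0.297 and 0.162 between the refed genotypes, all above the limit of 0.1, and at -0.474, -0.374 and -0.226 between the fasted genotypes. The largest values, 0.743, 0.545 and 0.390, joined WT fasted and Lpin1-/- refed libraries, groups that differ in both factors and were not compared directly, and their replicates 1 share a strong length trend; what the numbers track was not tested. The main fits used no pairing of libraries, and no label ties the mice. The replicate block was fitted only as an alternative. Annotation and sequences came from GENCODE M21 and RefSeq; Per2 had no promoter in the RefSeq table. Analyses used Python 3.11.15, numpy 2.4.6 and pandas 2.3.3, and figures matplotlib 3.10.9.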

Additional observations from a re-analysis of the deposited data

Results flagged for a closer look

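The interaction of genotype and feeding for inclusion of Nr1d1 exon 3 was 6.90 ± 1.08 on the log2 ratio scale (limma, adjusted p = 0.0185), so the genotype difference in fasted liver was larger than the one in refed liver by a test of that difference. Inclusion in this event was 42.5% to 64.4% in fasted Lpin1-/- libraries and 98.7% to 100% in all others. With another neighbour, the same exon had 0, 2 and 0 skipping counts beside 90, 152 and 191 including counts in fasted Lpin1-/- liver. The fit used the exon events shared by both states, chosen after seeing the data, and its size depends on the 0.5 added where no skipping read was counted.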

How the results depend on the processing

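Of the 10 clock genes, the number called by genotype in fasted liver was 1, and became 2 after rescaling, 0 with only the 6 fasted libraries, 4 with the length trend removed, and 0 to 3 with 1 library left out. In refed liver 4 became 1 with no filter on low values, 2 with only the 6 refed libraries, and 1 to 5 with 1 library left out. The averaged count of 4 was 4 to 5 with 1 library left out. Between states in WT liver 1 became 0 at a mean of at least 5 RPKM (Per2 then left out), with only the 6 WT libraries or without the 4 libraries with a strong length trend, and 0 to 2 with 1 library left out. In Lpin1-/- liver 4 became 2 at a mean of at least 5 RPKM, where Clock and Per2 are not tested, and 2 to 4 with 1 library left out. The interaction count of 0 became 1 with the length trend removed. The 14 exon events in fasted liver became 6 among the events joined over both states, where 21 could be tested, and 9 to 13 with 1 library left out. Where not named, the cause was not tested. No value of a called gene or exon reversed its sign; 348 of these values kept their call and 63 kept their direction only. The replicate block left the counts of clock genes at 1 in fasted, 4 in refed, 4 averaged, 1 and 4 between states and 0 for the interaction, with refed adjusted p of 0.0459 for Arntl, 0.0416 for Per3, 0.0193 for Cry1 and 0.0428 for Nr1d1, and changed no call of a clock gene; with it Hlf (adjusted p = 0.0688), Parp1 (0.0547) and Btrc (0.0586) lost their call in fasted liver and Sgk1 (0.0647) between states in Lpin1-/- liver. Exon lists carry no replicate numbers, so no block was fitted there. Near 0.5 RPKM, as for Npas2 and Per3, and on exons with under 20 counts, depth limits what can be detected.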

Other observations

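Averaged over both states, Ppargc1a, a fasting-induced coactivator of ROR receptors, was higher in Lpin1-/- liver by 1.09 ± 0.34 (adjusted p = 0.0415, kept in 9 of 19 alternatives), and Sirt6 was lower by -0.43 ± 0.13 (adjusted p = 0.0344, kept in 7 of 19). Sik1 was higher by 1.51 ± 0.38 (adjusted p = 0.0157) and Bhlhe40 by 1.00 ± 0.31 (adjusted p = 0.0397), the latter kept in 11 of 20. Btrc, which acts on PER proteins, was lower by -0.58 ± 0.17 (adjusted p = 0.0300). Parp1 (-0.77, adjusted p = 0.0139) and Kat2b (-0.78, adjusted p = 0.0223) were also lower.

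Between states in Lpin1-/- liver, refed levels of the AMP kinase subunit gene Prkaa1 (1.18 ± 0.27, adjusted p = 0.0115), Ube3a (1.38 ± 0.37, adjusted p = 0.0220), Csnk2b (0.75 ± 0.18, adjusted p = 0.0128), Sfpq (1.41 ± 0.34, adjusted p = 0.0153), Hsf1 (0.94 ± 0.25, adjusted p = 0.0219) and Creb1 (0.87 ± 0.22, adjusted p = 0.0181) were higher than fasted levels. Over all 6 lists 14 of 58 genes tested passed in this comparison, against 20.7% of all genes.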
